A study of Mus musculus with 12 samples.

Results

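Endothelial cells line blood vessels, and 10 genes that are widely used to mark them were followed here across germ cells and soma of the mouse fetal gonad: Pecam1, Kdr, Cdh5, Tek, Tie1, Eng, Emcn, Esam, Cldn5 and Egfl7. The genes were taken by symbol, whatever their level, and all 10 were found among the 12845 genes of both deposited tables. The 12 RNA sequencing libraries form 4 groups of 3: male primordial germ cells (PGCs, the embryonic precursors of sperm and eggs), male soma, female PGCs and female soma. All embryos carried the Oct4GFP reporter (strain Oct4GFPxICR), a green fluorescent protein that marks germ cells, none was treated, and gonads were taken at E13.5, in mid-gestation. PGCs are the cells sorted as Oct4GFP(+) and soma is every cell sorted as Oct4GFP(-), so the soma holds supporting cells, stroma, blood and vessel cells in unknown shares. The labels do not give the number of embryos behind a library or say whether replicates came from separate litters, so p-values measure only the spread between these libraries, which may be technical.

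As background, endothelium senses vascular endothelial growth factors through the receptor Kdr and angiopoietins through Tek and its partner Tie1, and it holds its cells together with the cadherin Cdh5, the claudin Cldn5 and the immunoglobulin-like proteins Pecam1 and Esam. Eng is a co-receptor for ligands of the TGF-beta and BMP family. The fetal testis forms a large coelomic artery that the ovary lacks, and Pecam1 (also called CD31) is used in histology to stain both vessels and early germ cells.

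Levels are given as CPM, a gene's reads scaled to the library total, from whole reads recovered from the deposited values, and as RPKM (CPM per kilobase of exon) where genes are compared with each other. Differences are log2 values ± SE from limma on the deposited read depth table, with p-values adjusted over all 12845 genes, and a call means an adjusted p under 0.05. That table compresses differences: over these 10 genes, a change of 1 log2 unit in CPM went with 0.628 in the table. Differences per cell come from the second deposited table, which is scaled to cell number through spike-in RNA. Libraries held 6454322 to 24791414 reads, and the label check held in each of them: Pou5f1, which encodes Oct4, ran from 238 to 782 CPM in PGC libraries and from 0.565 to 8.67 in soma libraries. Female soma 1 and 2 held the most germ cell transcript among soma libraries, with Pou5f1 at 3.17% and 2.19% of the female PGC mean against 0.558% in female soma 3 and 0.0744% to 0.202% in male soma.

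Pecam1 was higher in PGCs than in soma in both sexes, and none of the other 9 genes was called higher in PGCs by read depth. In males 1 of the 10 genes was higher and 8 were lower in PGCs than in soma, where 39.1% and 43.7% of all genes were called in those directions. In females 1 was higher and 9 were lower, against 38.7% and 42.3% of all genes, and under quantile normalization Esam and Cldn5 moved to 0.0502 and 0.12 in females. The median difference of the 10 genes was -1.69 in males and -1.40 in females, beside -0.06 and -0.05 over all genes. Without Pecam1 the remaining 9 genes summed to 17.2 to 20.3 CPM in male PGC libraries and 159 to 239 in male soma, and to 28.6 to 34.2 in female PGCs and 193 to 246 in female soma. Every gene in the tables held at least 5.07 CPM in its third-highest library. Kdr, Cdh5, Tek, Tie1, Emcn and Esam lay below that in every PGC library, so they reached it through soma alone. Their lower level in PGCs was thus partly fixed in advance, which limits the counts and medians above. It equally limits the p-values, fold values and separated ranges given for these genes below. The gene lists below share this limit where their genes were low in PGCs. In bulk libraries such as these, fewer cells of a type and less RNA per cell cannot be told apart.

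**Figure D1:**
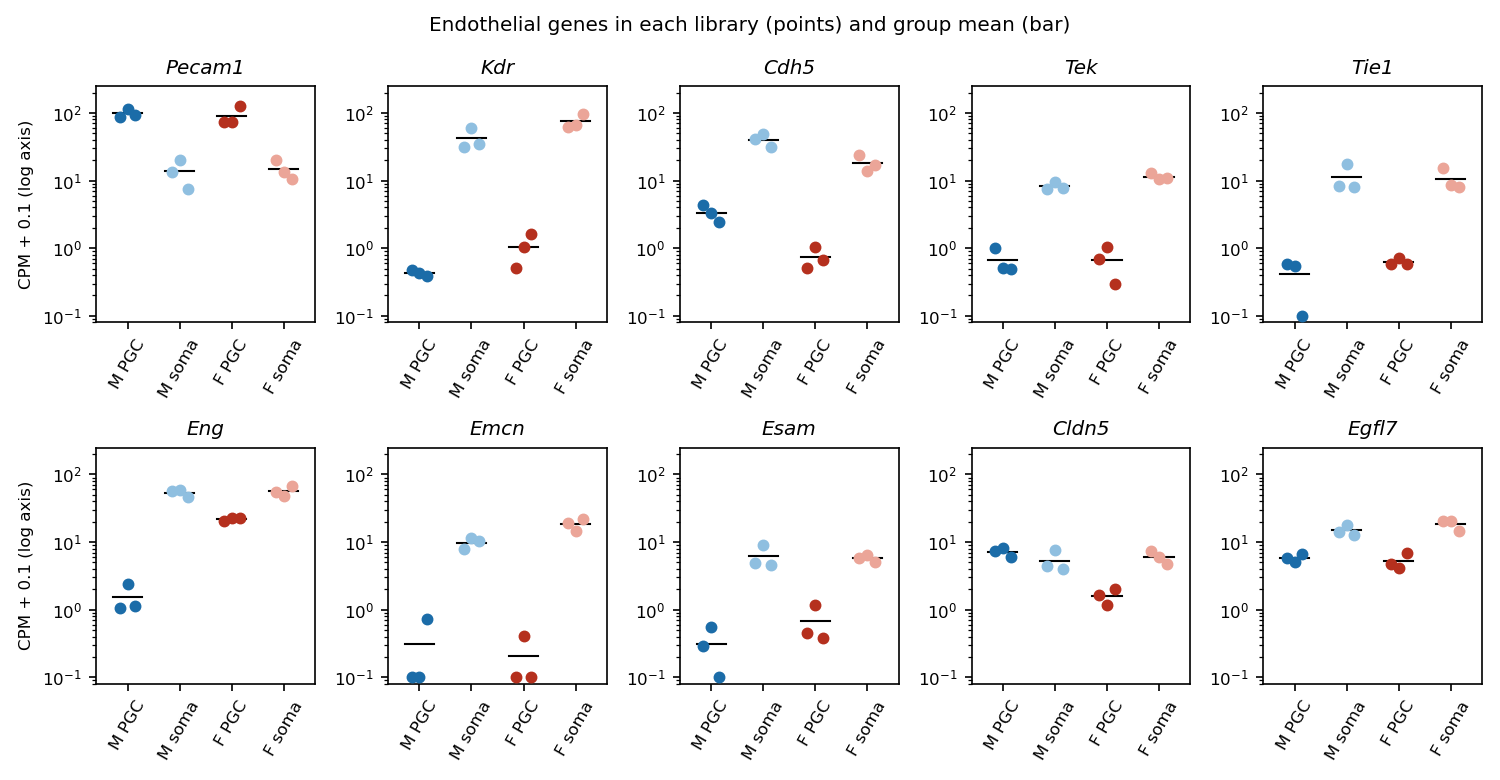
Levels of the 10 endothelial genes in each of the 12 libraries, in CPM on a log axis, with points for libraries and bars for group means. Pecam1 lies at 72.1 to 126 CPM in the 6 PGC libraries and at 7.45 to 20.3 in the 6 soma libraries, while Kdr lies at or below 1.53 in PGCs and at or above 30.8 in soma.

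Pecam1 (gene ENSMUSG00000020717.19, chromosome 11, 106654217 to 106750628 of GRCm38, minus strand) had 87.4, 114 and 92.1 CPM in male PGCs and 13.1, 20.0 and 7.45 in male soma. In female PGCs it had 72.1, 73.7 and 126 CPM, and in female soma 20.3, 13.501 and 10.6. The lowest PGC library exceeded the highest soma library, and the sexes overlapped within PGCs and within soma. The mean in PGCs was 7.24-fold that of soma in males and 6.12-fold in females, with read depth differences of 2.30 ± 0.23 (adjusted p = 4.73e-07) and 1.95 ± 0.23 (adjusted p = 2.92e-06). Per cell the differences were 4.58 ± 0.32 and 5.04 ± 0.32, where the median over all genes was 1.42 in males and 2.36 in females, so Pecam1 lay above the general per-cell excess of PGCs in both sexes. The read depth difference ranged from 2.03 to 2.53 in males and from 1.75 to 2.13 in females when each library was left out in turn.

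Between the sexes no call was made for Pecam1 by read depth, with -0.24 ± 0.23 for female against male PGCs (adjusted p = 0.397) and 0.11 ± 0.23 for the 2 soma groups (adjusted p = 0.794). Per cell the female soma stood at -0.71 ± 0.32 against male soma (adjusted p = 0.0408), beside a median of -0.86 over all genes. That call was lost without the intensity trend (adjusted p = 0.0589) and without any 1 of 9 libraries, among them male soma 2 (adjusted p = 0.146) and female soma 2 (adjusted p = 0.157). In RPKM, Pecam1 was the highest of the 10 genes in PGCs, at 15.7 ± 2.31 in males and 14.5 ± 4.89 in females (SD, n = 3). In soma it ranked below several of the others, at 2.17 ± 1.01 and 2.38 ± 0.806.

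In soma libraries Pecam1 reached a larger share of its PGC level than 2 germ cell genes did. Pecam1 in female soma 1, 2 and 3 was 22.5%, 14.9% and 11.7% of the female PGC mean, while Pou5f1 was 3.17%, 2.19% and 0.558% and the germ cell helicase Ddx4 was 2.84%, 4.20% and 0.255%. In male soma Pecam1 was 13.4%, 20.4% and 7.61% of the male PGC mean, and Pou5f1 0.202%, 0.0744% and 0.151%. The summed CPM of 15 germ cell markers stood higher there than Pou5f1, at 2.17% to 2.43% of the male PGC mean. In female soma 1, 2 and 3 that sum stood at 4.92%, 6.64% and 2.59% of the female PGC mean. The share of Pecam1 was the largest of these in each of the 6 soma libraries, and female soma 1, with the most Pou5f1, also had the most Pecam1 of the female soma libraries; among male soma libraries, however, male soma 2 had the most Pecam1 and the least Pou5f1, and by Ddx4 female soma 2 held the most germ cell transcript. The part of germ cell RNA in these levels was not tested. Leukocytes and platelets also carry Pecam1, so their lists stand beside it. All 15 measured leukocyte and macrophage genes were lower in PGCs in both sexes, where 43.7% of all genes were lower in males and 42.3% in females. Their summed level was 7.30 to 21.1 CPM in PGC libraries against 275 to 886 in soma. At such levels these genes entered the data largely through soma, so their lower calls in PGCs were partly fixed in advance. Pf4, a platelet gene, had no reads in any male PGC library and a mean of 0.365 CPM in female PGCs, against 3.29 and 11.5 in male and female soma. Of 12 listed platelet genes only 3 were measured. Of these, 2 were lower and 1, Itgb3, was higher in PGCs of each sex, where 39.1% of all genes were higher in males and 38.7% in females.

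Of 16 listed genes of proteins that bind Pecam1 or act downstream of it, all measured, 2 were higher and 12 lower in male PGCs (39.1% and 43.7% of all genes), and 3 were higher and 10 lower in female PGCs (38.7% and 42.3% of all genes). Their medians were -0.77 and -0.47. The integrin subunit Itgb3, which pairs with integrin alpha V in a complex that binds Pecam1, was higher in PGCs of both sexes, at 183 CPM against 31.6 in males (2.10 ± 0.14, adjusted p = 3.56e-09) and 110 against 14.8 in females (2.17 ± 0.14, adjusted p = 3.48e-09). Ptpn6, a phosphatase recruited to the Pecam1 tail, was also higher, by 1.05 ± 0.12 in males and 1.02 ± 0.12 in females. The tyrosine kinase Src was lower by 12.3-fold in males and 10.3-fold in females. Csk, the kinase that restrains Src, was at 127 CPM in male PGCs and 121 in male soma (0.15 ± 0.07, adjusted p = 0.0635), and lower in female PGCs at 83.6 against 116 (-0.37 ± 0.07, adjusted p = 0.000256). Ptpn6 was named after its values were seen.

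**Figure D2:**
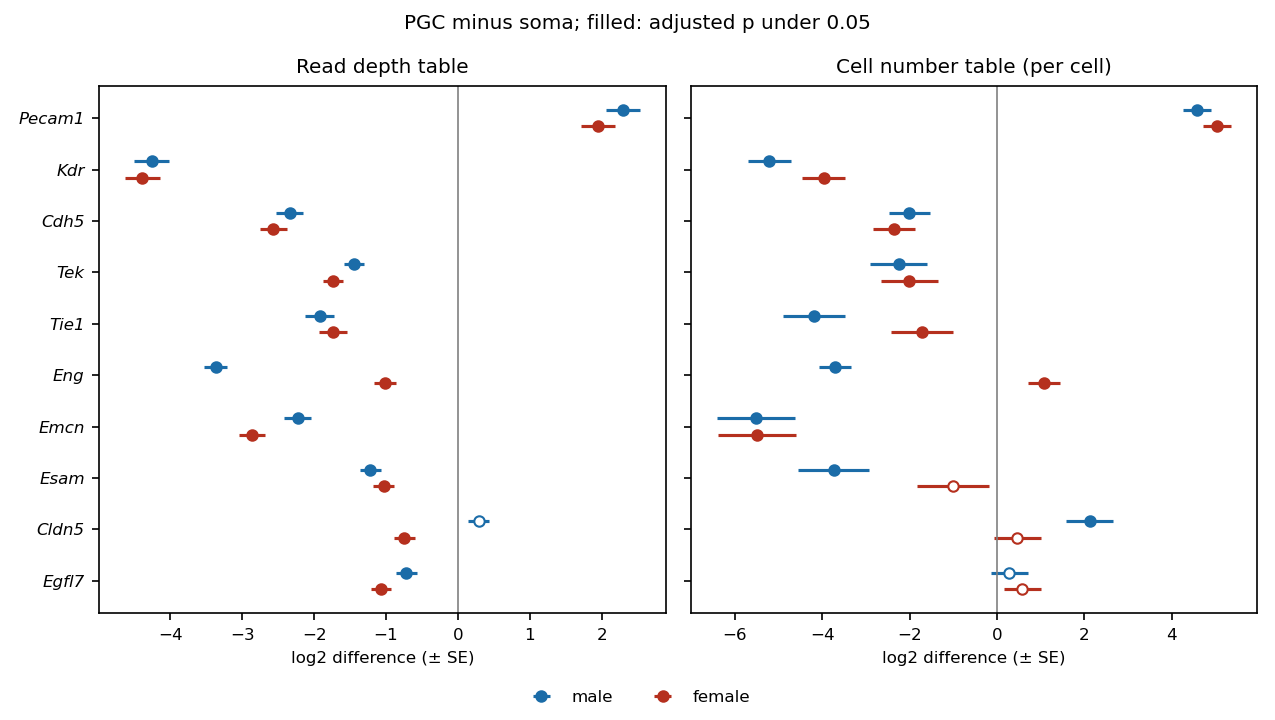
Differences between PGCs and soma for the 10 genes in males and females, as log2 values ± SE from the read depth table and from the cell number table, with filled points at an adjusted p under 0.05. Pecam1 lies to the right of 0 in all 4 contrasts, and Kdr, Cdh5, Tek, Tie1, Emcn and Esam lie to the left in all 4. Eng changes side per cell in females, at 1.07 against -3.70 in males.

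The growth factor receptors Kdr, Tek and Tie1 had at most 19 reads in any PGC library. They entered the data through soma alone, so their separation from soma was partly fixed in advance. Kdr (ENSMUSG00000062960.10, chromosome 5, 75932827 to 75978458, minus strand), the main signalling receptor for Vegfa, had 0.382, 0.328 and 0.282 CPM in male PGCs, which is 8, 8 and 5 reads, and 30.8, 60.5 and 34.8 CPM in male soma. Female PGCs had 0.403, 0.930 and 1.53 CPM (9, 6 and 16 reads) and female soma 62.5, 66.6 and 97.1. No PGC library came near a soma library, and soma means were 127-fold those of PGCs in males and 79.0-fold in females, with read depth differences of -4.26 ± 0.24 (adjusted p = 8.81e-10) and -4.39 ± 0.24 (adjusted p = 9.93e-10). Kdr was also lower in PGCs per cell, by -5.21 ± 0.49 and -3.97 ± 0.49. The 250 bases before its start in RefSeq are shown because Kdr had the largest read depth difference of the 10 genes. Lower case is sequence on the gene's strand and capitals mark GGAAGT or its reverse complement ACTTCC, a form of the motif that ETS factors bind.
Kdr, chr5:75978456-75978705 of GRCm38.p6, minus strand: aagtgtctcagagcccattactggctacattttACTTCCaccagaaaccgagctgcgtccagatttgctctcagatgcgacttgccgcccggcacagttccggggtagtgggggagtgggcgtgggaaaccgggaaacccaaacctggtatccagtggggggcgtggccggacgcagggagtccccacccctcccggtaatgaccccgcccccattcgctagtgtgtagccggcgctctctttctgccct

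Tek (ENSMUSG00000006386.15, chromosome 4, 94739289 to 94874976, plus strand), the angiopoietin receptor, had 0.191 to 0.930 CPM over the 6 PGC libraries. In soma it had 7.32, 9.32 and 7.78 CPM in males and 12.9, 10.3 and 10.9 in females. The groups did not overlap, and the differences of PGCs against soma were -1.45 ± 0.14 in males (14.2-fold higher in soma, adjusted p = 1.86e-07) and -1.73 ± 0.14 in females (20.0-fold, adjusted p = 3.39e-08). Tie1 (ENSMUSG00000033191.14, chromosome 4, 118471191 to 118490061, minus strand), the orphan receptor that pairs with Tek, had 10, 11 and 0 reads in male PGCs and 11, 4 and 5 in female PGCs. Its soma levels were 8.30, 17.2 and 8.05 CPM in males and 15.004, 8.59 and 7.88 in females, again without overlap. Tie1 was lower in PGCs by read depth in males (-1.93 ± 0.20, adjusted p = 4.82e-07) and females (-1.74 ± 0.20, adjusted p = 1.62e-06). Per cell the female difference of Tie1, -1.71 ± 0.71 (adjusted p = 0.0181), was lost without the intensity trend (adjusted p = 0.0607), without male soma 3 (adjusted p = 0.0752) and without female soma 1 (adjusted p = 0.101). Quantile normalization left smaller read depth differences that were still called, at -0.52 and -0.80 for Tek and -1.02 and -0.81 for Tie1 in males and females.

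Of 10 measured ligands of the VEGF, angiopoietin and TGF-beta families, 1 was higher and 9 were lower in male PGCs (median -1.73, with 39.1% and 43.7% of all genes called). In female PGCs 0 were higher, 8 lower and 2 not called (median -1.26, with 38.7% and 42.3% of all genes called). Vegfa, the ligand of Kdr, stood at 294 CPM in male soma and 6.05 in male PGCs (-4.25 ± 0.17, adjusted p = 3.49e-11), and at 246 in female soma and 13.4 in female PGCs (-3.28 ± 0.17, adjusted p = 6.47e-10). Vegfb was lower in male PGCs, at 17.8 against 51.2 CPM, and was not called in females, at 47.7 against 43.5 (0.10 ± 0.12, adjusted p = 0.479). Tgfb2 and Tgfb3, both TGF-beta ligands, were lower in PGCs of both sexes, Tgfb2 by 129-fold in males and 225-fold in females, Tgfb3 by 12.4-fold and 539-fold.

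Genes of 2 junction proteins, Cdh5 and Cldn5, were lower in female than in male PGCs. With Eng, which was higher, they were the 3 of 10 genes called between the PGC sexes by read depth, where 32.8% of all genes were called higher and 32.5% lower in females. Cdh5 (ENSMUSG00000031871.9, chromosome 8, 104101625 to 104144511, plus strand), the cadherin of endothelial junctions, had 4.25, 3.16 and 2.37 CPM in male PGCs (89, 77 and 42 reads) and 0.403, 0.930 and 0.574 in female PGCs (9, 6 and 6 reads). Male soma had 41.5, 48.5 and 30.7 CPM and female soma 23.9, 13.8 and 16.9. The 4 groups did not overlap: male soma was highest, then female soma, male PGCs and female PGCs. PGCs were lower than soma by -2.34 ± 0.19 in males (12.3-fold, adjusted p = 3.59e-08) and -2.57 ± 0.19 in females (28.7-fold, adjusted p = 1.71e-08). Male PGCs exceeded female PGCs by 5.13-fold in CPM (-1.09 ± 0.19 for female against male, adjusted p = 0.000165, and -2.41 per cell).

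Cldn5 (ENSMUSG00000041378.2, chromosome 16, 18776847 to 18778262, plus strand), a claudin of endothelial tight junctions, was the only one of the 10 genes besides Pecam1 with no lower level in male PGCs than in male soma. It had 7.31, 8.20 and 5.87 CPM in male PGCs and 4.37, 7.42 and 3.86 in male soma, ranges that overlap through male soma 2. The male difference was 0.29 ± 0.15 (adjusted p = 0.0773). It was called under quantile normalization (1.11, adjusted p = 1.17e-05), under median centring (0.54), without male soma 2 (0.43, adjusted p = 0.0168) and without the intensity trend (adjusted p = 0.0476), and per cell it was 2.12 ± 0.53 beside the median of 1.42 over all genes. Female PGCs had 1.52, 1.08 and 1.91 CPM, which is 34, 7 and 20 reads, and all 3 lay below the female soma libraries at 7.34, 5.83 and 4.70. The female difference was -0.74 ± 0.15 (3.95-fold, adjusted p = 0.000308), and male PGCs exceeded female PGCs by 4.73-fold (-0.95 ± 0.15 for female against male, adjusted p = 6.03e-05). Its difference of PGCs against soma therefore differed between the sexes, by -1.04 ± 0.21 in females minus males (adjusted p = 0.00078). By RPKM Cldn5 was second only to Pecam1 in male PGCs, at 5.04 ± 0.831, while its female PGC level was 1.06 ± 0.292 (SD, n = 3). Its promoter window is shown because Cldn5 differed between male and female PGCs, and it holds no match to GGAAGT.
Cldn5, chr16:18776597-18776846 of GRCm38.p6, plus strand: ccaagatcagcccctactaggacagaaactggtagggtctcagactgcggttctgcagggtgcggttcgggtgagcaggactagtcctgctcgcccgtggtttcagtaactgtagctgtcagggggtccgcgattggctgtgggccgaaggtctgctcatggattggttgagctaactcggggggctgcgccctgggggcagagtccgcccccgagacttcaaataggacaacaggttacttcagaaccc

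Esam (ENSMUSG00000001946.14, chromosome 9, 37528078 to 37538319, plus strand), an adhesion molecule of endothelial tight junctions, had 4, 11 and 0 reads in male PGCs and 8, 7 and 3 in female PGCs. Soma levels were 4.81, 9.04 and 4.51 CPM in males and 5.67, 6.44 and 4.96 in females, above every PGC library. The read depth differences were -1.22 ± 0.15 in males (adjusted p = 3.56e-06) and -1.03 ± 0.15 in females (adjusted p = 2.02e-05). Under quantile normalization neither call was kept, at -0.29 in males (adjusted p = 0.102) and 0.0502 in females (adjusted p = 0.776). Per cell the female difference was -1.01 ± 0.81 (adjusted p = 0.232).

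Of 14 measured junction partners, 6 were higher and 8 lower in male PGCs, and 3 were higher and 8 lower in female PGCs, shares near those of all genes apart from the higher calls in females (39.1% and 43.7% in males, 38.7% and 42.3% in females). Cdh1, the epithelial cadherin, stood at 305 CPM in male PGCs and 1.79 in male soma (5.74 ± 0.15, adjusted p = 1.08e-12), and at 52.7 in female PGCs and 5.94 in female soma (2.40 ± 0.15, adjusted p = 3.51e-09). Cdh1, like Cdh5, was lower in female than in male PGCs (-2.22 ± 0.15, adjusted p = 3.18e-08). Ctnnb1, the beta-catenin that binds both cadherins, was the highest of the list in RPKM and moved little, by -0.20 ± 0.07 in males and -0.22 ± 0.07 in females. Jup, which can replace it at junctions, was lower in PGCs by 7.42-fold in males and 26.0-fold in females.

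Eng was the member whose germ cell level differed most between the sexes. Eng (ENSMUSG00000026814.16, chromosome 2, 32646595 to 32682669, plus strand) had 0.956, 2.30 and 1.02 CPM in male PGCs (20, 56 and 18 reads) and 20.3, 22.8 and 22.4 in female PGCs (454, 147 and 234 reads). In soma it had 56.4, 58.0 and 46.9 CPM in males and 55.1, 47.4 and 66.8 in females, ranges that overlap. Female PGCs thus lay between male PGCs and soma, without overlap with either. Female PGCs exceeded male PGCs by 15.3-fold in CPM, with a read depth difference of 2.38 ± 0.16 (adjusted p = 2.65e-08) and 3.94 ± 0.37 per cell, and the soma groups stood 0.03 ± 0.16 apart (adjusted p = 0.931). PGCs were lower than soma by -3.37 ± 0.16 in males (37.8-fold, adjusted p = 1.41e-10) and by -1.01 ± 0.16 in females (2.59-fold, adjusted p = 3.66e-05). Per cell the female difference turned to 1.07 ± 0.37 (adjusted p = 0.00397), which is under the median of 2.36 over all genes, while the male difference was -3.70 ± 0.37. The difference between the sexes in the contrast of PGCs with soma was 2.35 ± 0.22 by read depth (adjusted p = 1.62e-06) and 4.77 ± 0.52 per cell, and by read depth it ranged from 2.25 to 2.55 over the 12 fits that each left out 1 library.

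The promoter window of Eng holds 1 match to GGAAGT or its reverse complement, in capitals, and is shown because Eng had the largest difference between male and female PGCs among the 10 genes.
Eng, chr2:32646345-32646594 of GRCm38.p6, plus strand: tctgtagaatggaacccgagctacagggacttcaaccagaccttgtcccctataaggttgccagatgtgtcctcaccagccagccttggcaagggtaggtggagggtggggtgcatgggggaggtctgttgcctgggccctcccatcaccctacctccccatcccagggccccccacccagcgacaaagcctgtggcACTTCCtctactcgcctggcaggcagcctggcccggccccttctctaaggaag

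RefSeq promoter windows matched 7 of the 10 genes and gave 9 windows. GGAAGT on either strand was found in 5 of the 9 windows, belonging to Kdr, Tie1, Eng and Egfl7, and in 19.7% of 32851 windows of all genes of the same length. ATGCAAAT, the octamer bound by Oct4 and related factors, was found in 0 of the 9 windows and in 1.60% of all windows, on either strand. A match is a description of these letters only.

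In the annotation the 3' end of Eng overlaps Fpgs on the opposite strand, and no source used here states the strand setting of the counting, so reads from the overlap cannot be told apart. Fpgs, a folate enzyme gene, had mean CPM of 63.6 and 35.8 in the male and female PGCs, and of 37.8 and 44.5 in the corresponding soma. Its order in PGCs was the opposite of that of Eng, with 61.4, 78.6 and 50.7 CPM in males and 33.5, 28.04 and 45.8 in females.

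Genes of the TGF-beta and BMP pathway moved in both directions between the PGC sexes. The 3 Id genes, the receptors Tgfbr1 and Bmpr2 and the inhibitor Smad6 were higher in female PGCs, as Eng was. The co-receptor Tgfbr3 was lower. Of 17 listed genes of receptor signalling, 7 were higher and 4 lower in female than in male PGCs (median 0.15, beside 0.01 over all genes), where 32.8% and 32.5% of all genes were called. Id1, Id2 and Id3 encode inhibitors of differentiation that BMP signals are known to induce. Id1 had 1.67, 4.10 and 3.95 CPM in male PGCs and 88.5, 123 and 103 in female PGCs (3.49 ± 0.18, adjusted p = 4.13e-09). Id3 had 13.48, 17.4 and 9.82 CPM in male PGCs and 164, 198 and 166 in female PGCs (2.71 ± 0.15, adjusted p = 4.45e-09). Id2 stood at a mean of 39.6 CPM in female against 3.33 in male PGCs (2.36 ± 0.19, adjusted p = 1.80e-07). Tgfbr1 stood at 220 CPM in female against 45.9 in male PGCs (1.64 ± 0.09, adjusted p = 8.28e-09). Bmpr2 stood at 74.8 against 26.3 (1.01 ± 0.12) and Smad6 at 65.8 against 26.3 (0.87 ± 0.10).

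Other receptors of the pathway were lower or not called between the PGC sexes. Tgfbr3, a co-receptor for TGF-beta ligands, was lower in female than in male PGCs, at 1.95 against 19.5 CPM (-2.31 ± 0.15, adjusted p = 2.11e-08). Acvrl1, the receptor that Eng assists in endothelium, was at 0.683 CPM in male and 1.04 in female PGCs (0.23 ± 0.19, adjusted p = 0.305), against 35.9 and 21.6 in soma. Tgfbr2, the ligand-binding TGF-beta receptor, was lower in PGCs than in soma by 87.2-fold in males and 90.3-fold in females. Against soma of their own sex, 0 of the 17 genes were higher and 16 lower in male PGCs (39.1% and 43.7% of all genes), and 3 were higher and 10 lower in female PGCs (38.7% and 42.3%). Id2, Tgfbr1, Bmpr2, Smad6 and Acvrl1 were named after their values were seen.

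**Figure D3:**
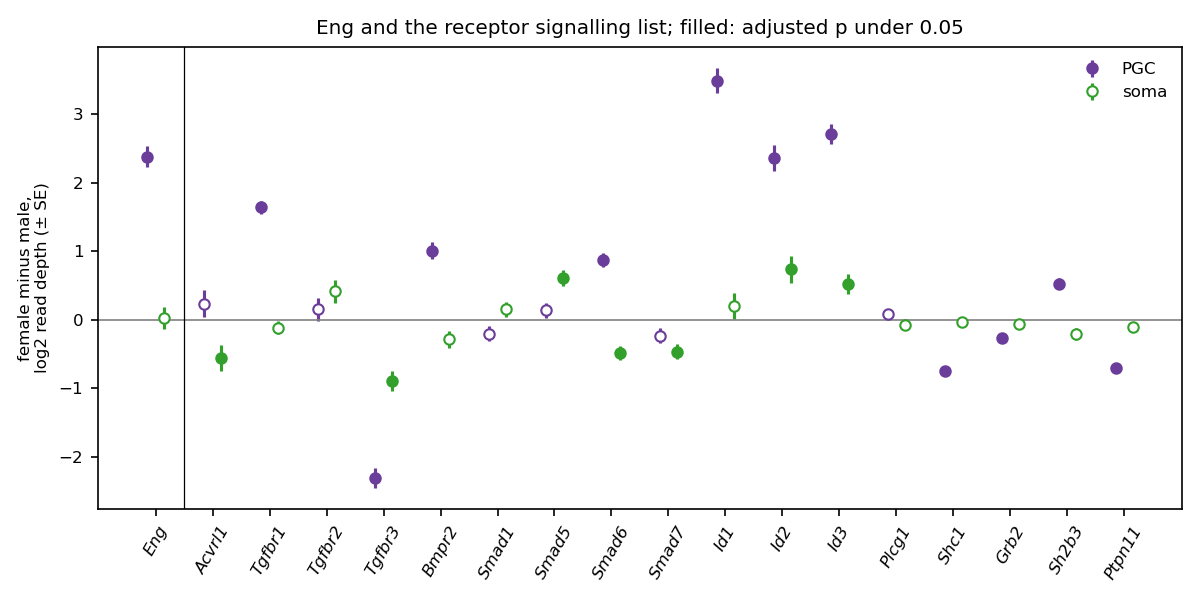
Female minus male differences (log2 ± SE, read depth table) of Eng and the 17 genes of the receptor signalling list, in PGCs and in soma, with filled points at an adjusted p under 0.05. In PGCs Eng (2.38), Id1 (3.49), Id3 (2.71) and Id2 (2.36) lie highest and Tgfbr3 (-2.31) lowest, while Eng in soma lies at 0.03.

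Emcn (ENSMUSG00000054690.17, chromosome 3, 137341067 to 137432185, plus strand), a sialomucin of capillaries and veins, had the fewest reads of the 10 genes over the PGC libraries. It had 0, 0 and 11 reads in male PGCs and 0, 2 and 0 in female PGCs. In soma it had 7.76, 11.3 and 10.1 CPM in males and 18.8, 14.3 and 21.6 in females. PGCs were lower by -2.23 ± 0.18 in males (adjusted p = 4.79e-08) and -2.86 ± 0.18 in females (adjusted p = 4.74e-09), and the 2 reads of the female PGC group allow no stable ratio. Under quantile normalization the male difference of Emcn was -1.44, still called.

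Egfl7 (ENSMUSG00000026921.18, chromosome 2, 26580014 to 26593120, plus strand), a protein secreted by endothelium, was the member with the smallest called difference in males. It had 5.69, 5.004 and 6.66 CPM in male PGCs and 4.56, 4.03 and 6.88 in female PGCs, which overlap, against 13.98, 17.7 and 12.6 in male soma and 20.7, 20.1 and 14.6 in female soma. The lowest soma library exceeded the highest PGC library. The differences were -0.72 ± 0.14 in males (2.55-fold, adjusted p = 0.000304) and -1.07 ± 0.14 in females (3.58-fold, adjusted p = 7.29e-06), and quantile normalization ended the male call at -0.02 and left -0.52 in females (adjusted p = 0.00439). Per cell neither sex was called, at 0.28 ± 0.42 (adjusted p = 0.533) and 0.58 ± 0.42 (adjusted p = 0.187). Egfl7 overlaps Agpat2 on the opposite strand in the annotation, and Agpat2 itself was at 1.32 CPM in male PGCs and 14.3 in female PGCs, against 20.8 and 12.8 in soma, so reads shared between the pair cannot be told apart.

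How much of each member remained in PGC libraries differed between members. As a percentage of the soma mean of the same sex, Kdr stood at 0.672% to 0.910% in male PGC libraries and 0.534% to 2.03% in female ones. Cdh5 stood at 5.89% to 10.6% in male and 2.21% to 5.11% in female PGC libraries. Eng stood at 1.78% to 4.27% in males and 36.0% to 40.4% in females, Egfl7 at 33.9% to 45.1% and 21.8% to 37.3%, and Cldn5 at 113% to 157% and 18.2% to 32.1%. Marker lists of other soma cells, measured the same way from their summed CPM, stood at 3.34% to 6.20% for leukocytes, 3.32% to 4.60% for erythroid cells and 0.0887% to 0.432% for stroma in male PGC libraries. In female PGC libraries they stood at 0.996% to 2.88%, 1.24% to 1.53% and 0.104% to 0.366%, and supporting cell genes at 4.10% to 8.94% over both sexes. Pericyte and mural genes were at 17.4% to 20.2% in male and 7.12% to 9.30% in female PGC libraries. Of 11 pericyte and mural genes, 1 was higher and 10 were lower in male PGCs. Of 8 erythroid genes, 1 was higher and 7 were lower in PGCs of each sex. Over all genes 39.1% were higher and 43.7% lower in males, and 38.7% and 42.3% in females. The sums of these lists thus include genes higher in PGCs and do not measure soma RNA alone. Emcn stood at 0% in 4 of the 6 PGC libraries, below every list, at 6.38% in male PGC 3 and at 1.70% in female PGC 2. Kdr lay within the span of these lists in the same sex, and Eng in females, Egfl7 in both sexes and Cldn5 in both sexes lay above it. Esam lay above it in female PGC 2 only, at 19.1% on 7 reads. The part of carried-over soma RNA in these levels was not tested.

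**Figure D4:**
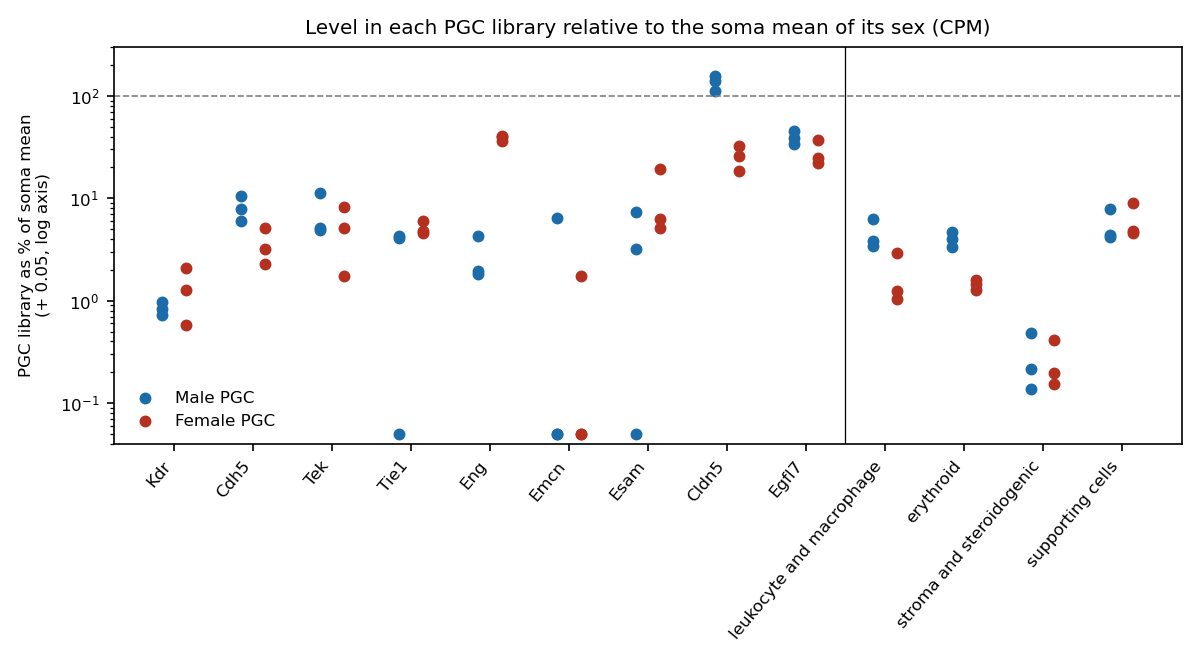
Level of 9 endothelial genes (without Pecam1) and of 4 marker lists of other soma cells in each PGC library, as a percentage of the mean CPM of soma of the same sex, on a log axis with 0.05 added. Eng in female PGCs (36.0% to 40.4%), Egfl7 (21.8% to 45.1%) and Cldn5 (18.2% to 157%) lie above the 4 lists, and Kdr lies at 0.534% to 2.03%. Cdh5 (10.6%) and Tek (11.2%) in male PGC 1 and Esam (19.1%) in female PGC 2 also lie above them. The pericyte and mural list is not plotted, and it stood at 17.4% to 20.2% in male and 7.12% to 9.30% in female PGC libraries.

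Of 17 measured transcription factors of endothelium, 4 were higher and 13 lower in male PGCs (median -1.93), beside 39.1% and 43.7% of all genes. In female PGCs 1 was higher and 14 were lower (median -1.59), beside 38.7% and 42.3%. Tal1 and Elk3 were lower in PGCs of both sexes, Tal1 by 62.0-fold and 152-fold and Elk3 by 88.2-fold and 25.4-fold. Ets1 was lower by 6.42-fold in males and 3.21-fold in females. Gata2, which acts in endothelial and blood progenitors, had 3.01, 5.58 and 2.26 CPM in male PGCs against 248, 257 and 305 in female PGCs, a difference of 4.54 ± 0.16 (adjusted p = 2.07e-10). Erg, an ETS factor of endothelium, went the other way, with 7.50, 6.19 and 8.24 CPM in male PGCs and 0.358, 1.86 and 0 in female PGCs (-1.23 ± 0.17, adjusted p = 1.93e-05). Male soma held Erg at 0.983, 2.54 and 1.20 CPM, below male PGCs. Erg was named after its values were seen.

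Of 26 further endothelial markers measured, 3 were higher and 20 lower in male PGCs and 1 was higher and 21 lower in female PGCs, with medians of -1.91 and -1.81. Over all genes 39.1% were higher and 43.7% lower in males, and 38.7% and 42.3% in females. The scavenger receptor Stab1 was at 0.260 and 1.95 CPM in male and female PGCs against 113 and 298 in soma, and the venous factor Nr2f2 at 2.37 and 3.06 against 558 and 434. Ephb4, a receptor of veins, was highest in RPKM on that list and was lower in PGCs by 2.28-fold in males and 4.48-fold in females. Flt4, the receptor of lymphatic growth factors, was higher in female than in male PGCs, with 0.670, 0.123 and 0.0565 CPM in male PGCs and 7.34, 6.51 and 10.6 in female PGCs (1.48 ± 0.16, adjusted p = 3.12e-06). Soma means of Flt4 were 5.61 CPM in males and 7.89 in females, so its female PGCs stood beside female soma, whereas those of Eng lay below it. Arhgef15, an exchange factor of endothelium, was lower in female PGCs, as Cldn5 was, at 0.753 CPM against 11.6 in male PGCs (-1.71 ± 0.24, adjusted p = 3.17e-05). Flt4 and Arhgef15 were named after their values were seen.

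Within the soma, 2 of the 10 genes were called between the sexes by read depth, 1 higher and 1 lower in females, where 13.3% and 11% of all genes were called in those directions. Cdh5 was lower in female soma, with means of 18.2 ± 5.17 CPM against 40.3 ± 8.97 in male soma (SD, n = 3), a 2.21-fold difference (-0.86 ± 0.19, adjusted p = 0.00454). The read depth call of Cdh5 was kept when each library was left out in turn (adjusted p up to 0.0266). Per cell the difference of Cdh5 was -2.05 ± 0.48, beside a median of -0.86 over all genes. Emcn was higher in female soma, at 18.2 ± 3.71 CPM against 9.73 ± 1.82 (0.57 ± 0.18, adjusted p = 0.0368). The Emcn call was lost without male soma 1 (adjusted p = 0.140), male soma 3 (0.0810), female soma 1 (0.0974) or female soma 3 (0.104). It was also lost under quantile normalization (0.43, adjusted p = 0.157). Per cell the difference of Emcn was 0.00 ± 0.90, beside the same all-gene median of -0.86.

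Kdr in soma did not pass the threshold, although its ranges did not overlap: female soma had a mean of 75.4 ± 18.9 CPM against 42.0 ± 16.1 in male soma, with a difference of 0.68 ± 0.24 (adjusted p = 0.0556). Its ranges met closely, with 60.5 CPM in male soma 2 and 62.5 in female soma 1. Voom on the recovered reads called it (0.79 ± 0.21, adjusted p = 0.013), as did quantile normalization (0.79, adjusted p = 0.0257) and the fit without male soma 2 (0.92, adjusted p = 0.0179). Per cell the difference of Kdr was -0.02 ± 0.49, where the median over all genes was -0.86. Tek, Tie1, Eng, Esam, Cldn5 and Egfl7 had read depth differences between -0.06 and 0.26 in soma, with adjusted p of 0.193 or more. By RPKM, Eng was the highest of the 10 genes in soma, at 13.3 ± 1.48 in males and 13.9 ± 2.41 in females. The next in male soma was Cdh5 (9.58 ± 2.13), and in female soma Kdr (8.35 ± 2.10). The ratio of Kdr to Cdh5 in RPKM was 0.345, 0.580 and 0.527 in the male soma libraries and 1.22, 2.24 and 2.67 in the female ones, and the ratio of Emcn to Cdh5 was 0.145, 0.182 and 0.256 against 0.611, 0.803 and 0.993. These ratios were chosen after the values were seen and were not tested.

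Cell type lists that could change the make-up of the soma moved between the sexes as well. Of 15 leukocyte genes, 12 were higher and 0 lower in female soma (13.3% and 11% of all genes), and their summed level was 275 to 394 CPM in male soma and 592 to 886 in female soma. Of 8 erythroid genes, 6 were higher and 0 lower in female soma, with 3511 to 8674 CPM in male and 17721 to 29677 in female soma libraries. Pericyte and mural genes gave 2 higher and 4 lower of 11. Among the 26 further endothelial markers, 6 were higher and 5 lower in female soma, so neither direction led the wider endothelial list. The part of cell composition in the Cdh5 and Emcn differences was not tested.

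**Figure D5:**
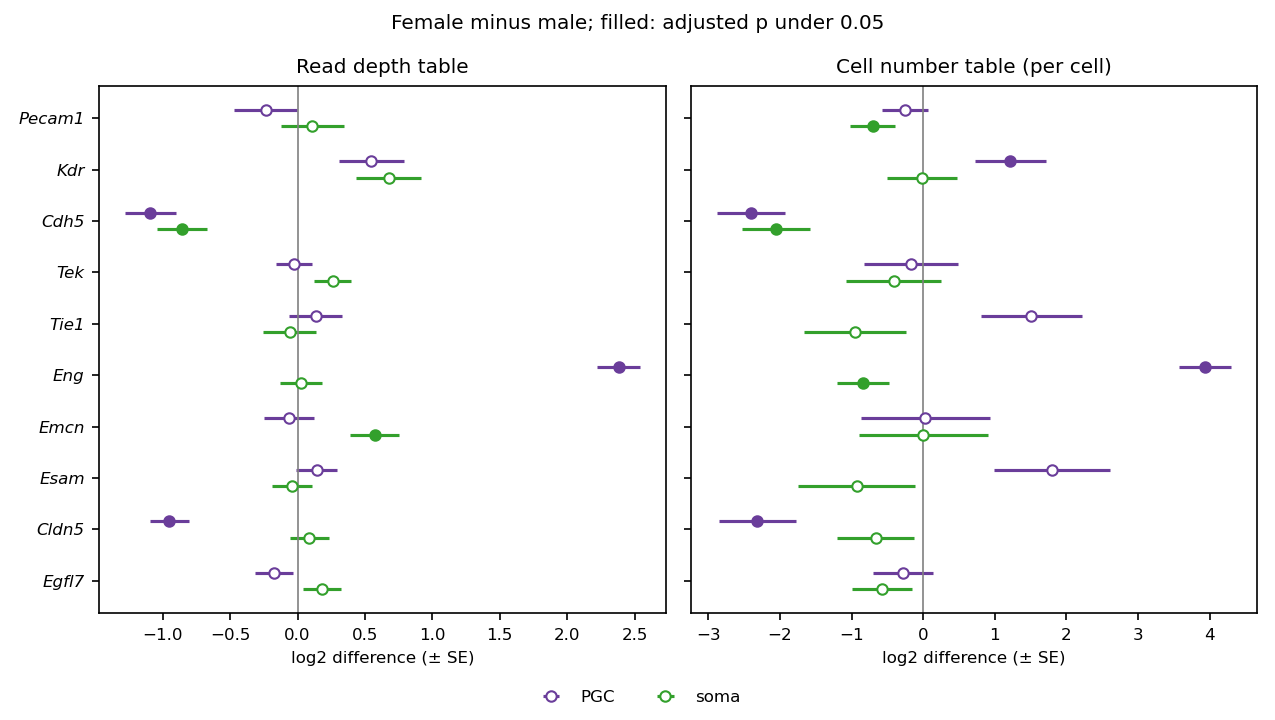
Female minus male differences of the 10 genes in PGCs and in soma (log2 ± SE), in the read depth table on the left and the cell number table on the right, with filled points at an adjusted p under 0.05. By read depth Eng (2.38), Cdh5 (-1.09) and Cldn5 (-0.95) are called in PGCs, and Cdh5 (-0.86) and Emcn (0.57) in soma.

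Between female and male PGCs, Eng was called higher and Cdh5 and Cldn5 lower in females by read depth, as given above. Kdr missed the threshold (0.55 ± 0.24, adjusted p = 0.0597) on 5 to 16 reads per library, and was called without female PGC 1 (0.80, adjusted p = 0.0086). Per cell Kdr was called higher in female PGCs (1.22 ± 0.49, adjusted p = 0.0342). Several fits that left out 1 library lost that call, such as without female PGC 3 (0.80, adjusted p = 0.255). The other 6 genes had read depth differences from -0.24 to 0.14. For the contrast of PGCs with soma, 2 of the 10 genes, Eng and Cldn5, differed between the sexes by read depth, where 27.9% of all genes were called higher and 28.9% lower in females minus males.

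Per cell, 2 of the 10 genes were higher and 7 lower in male PGCs than in male soma, against 64.0% and 19.8% of all genes. In females 2 were higher and 5 lower, against 77.2% and 11.5%. The median of the 10 genes was -2.98 in males and -1.36 in females. Between PGCs of the sexes 2 were higher and 2 lower per cell, against 24.3% and 17.7% of all genes. Between the soma groups 0 were higher and 3 lower in females, against 2.86% and 63.6%. For the difference between the sexes in the contrast of PGCs with soma 3 were higher and 0 lower, against 42.8% and 5.16%. Male soma 3 had a per-cell median of 5.25 over all genes, against 4.33 and 4.29 in male soma 1 and 2. By read depth the 3 medians were 8.80, 8.82 and 8.81. Per-cell contrasts with male soma, and their all-gene medians, thus carry the scale of this library. The per-cell p-values rest on 1 variance trend shared by all genes, since the fit gave it full weight over the spread of single genes.

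Genes whose read depth values followed Pecam1 most closely over the 12 libraries were Hic2, Gstm3, Rfc5, Vrtn, Akap1 and Pdcd10, with Pearson correlations of 0.976 to 0.982. Hic2, for example, stood at 144 and 155 CPM in male and female PGCs against 36.4 and 42.3 in soma. For Cdh5 the closest genes were Cxcl12, Spats2l, Chst1, Arhgap24, Leprot and Gstm2, at 0.985 to 0.989. Cxcl12, a chemokine of stroma, had mean CPM of 799 and 247 in male and female soma and of 11.2 and 1.28 in the PGCs, the same order of groups as Cdh5. Among the 10 genes, Pecam1 ran opposite to Kdr (-0.93) and Cdh5 (-0.85) and was nearly unrelated to Cldn5 (-0.14). All these values share the same 4 groups and are given as a description.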

How the data were processed

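RNA was measured in 12 libraries of sorted mouse gonad cells, grouped by sex and cell type from the sample titles. The authors deposited 2 tables of log2 values over the same 12845 genes, one scaled to read depth and one, read here as scaled to cell number, for which ERCC spike-in RNA was added per cell per the labels' protocols. The submitters' processing notes name build mm10 and the tools limma 3.28.14, edgeR 3.14.0, HTSeq 0.6.1p1, DESeq2 1.12.3, TopHat2 2.0.9, R 3.3.0 and Trim Galore 0.4.0, without roles or order. No source used here states the annotation, the gene filter or the strand setting.

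In each library 100% of the cell number values inverted to whole reads within 0.001 reads, and these reads gave the depth (6454322 to 24791414), CPM and RPKM, with exon lengths from GENCODE for 12775 genes. The third-highest library of each gene held 5.07 CPM or more. The same limit applies to the lists, of which only the measured genes are counted. For example, 26 of 43 symbols of further endothelial markers, 10 of 16 of ligands and 3 of 12 of platelet genes were measured. Replicates of a group varied by more than sampling noise, with chi-square values per degree of freedom between 5.43 and 30.4. Both tables were fitted in full with limma 3.58.1 in R 4.3.3 (12 libraries, 4 group means, intensity trend, Benjamini-Hochberg adjustment, threshold 0.05). The prior degrees of freedom were 5.51 for read depth and infinite per cell, so per-cell p-values use only the shared trend. Python 3.11.15, pandas 2.3.3, numpy 2.4.6 and matplotlib 3.10.9 were used for tables and plots. On simulated data for female against male PGCs (12845 genes), read depth recovered 90% and 100% and cell number 17% and 81% of genes changed by log2 values of 1 and 2. Changes were added in the log2 units of each table, with normal noise, to genes drawn from all levels. Since read depth values compress differences, these rates do not hold for equal changes in CPM. They also need not hold for the members, of which 8 lie in the lowest 25% of genes.

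Alternatives were each library left out, a replicate block, no trend, robust variance, the lowest 25% of genes left out, median centring, quantile normalization and voom on the recovered reads. Leaving out female soma 1 and 2 was added after seeing the data. The 10 genes and all lists were chosen with earlier results of these data known. Named genes were the 10 genes, up to 4 of each list (the 2 highest in RPKM and the 2 with the largest difference of PGCs from soma), the label checks and the 6 genes most correlated with Pecam1 and with Cdh5. Others are marked as named after their values were seen. Promoter windows are the 250 bases before RefSeq starts in GRCm38.p6.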

Additional observations from a re-analysis of the deposited data

Results flagged for a closer look

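By limma's test, the female minus male difference in PGCs against soma was called in at least 1 table for 4 of 10 genes. By read depth 1 gene was higher and 1 lower, against 27.9% and 28.9% of all genes. Per cell 3 were higher and 0 lower, against 42.8% and 5.16% of all genes. For Eng this difference was 2.35 by read depth (adjusted p = 1.62e-06) and 4.77 per cell, where the all-gene median was 0.91. For Cldn5 it was -1.04 by read depth (adjusted p = 0.00078), and per cell it was -1.65 (adjusted p = 0.0583). For Esam and Tie1 it was 2.73 (adjusted p = 0.0391) and 2.46 (adjusted p = 0.0321) per cell only, on 0 to 11 reads in each PGC library, and by read depth it was 0.18 (adjusted p = 0.485) and 0.19 (adjusted p = 0.581). Without male PGC 3, in which Esam and Tie1 had 0 reads, the per-cell values were 1.54 (adjusted p = 0.2498) for Esam and 1.07 (adjusted p = 0.364) for Tie1. Without the intensity trend they missed the threshold as well, with adjusted p of 0.0557 and 0.0979.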

How the results depend on the processing

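Esam and Cldn5 in female PGCs against soma were the only called differences of the 10 genes that changed sign under any alternative run, at 0.0502 and 0.12 under quantile normalization by read depth. Differences of the 10 genes that were not called crossed 0 under several alternatives, such as Pecam1 in soma by read depth (-0.15 to 0.35 with each library left out). Median centring raised the all-gene median from -0.06 to 0.19 in males and from -0.05 to 0.15 in females for PGCs against soma, and quantile normalization raised it to 0.16 and 0.15. When the lowest 25% of genes were left out, 2 of the 10 genes remained, Pecam1 and Eng in the read depth table. The members called were then 2, 2, 0, 1 and 1 by read depth (main 9, 10, 2, 3 and 2) for males, females, soma, PGCs and the sex difference of the contrast. Per cell they were 2, 2, 1 and 1 for males, females, PGCs and the sex difference (main 9, 7, 4 and 3). In soma by read depth 1 gene was called without female soma 1 and 2, and per cell 1 was called without the intensity trend (main 2 and 3). With each library left out in turn, the members called ranged from 9 to 10, 10 to 10, 1 to 3, 3 to 4 and 2 to 3 by read depth, and from 9 to 9, 6 to 7, 1 to 3, 3 to 6 and 1 to 4 per cell, in the order above. The soma count fell to 1 by read depth without male soma 1, male soma 3, female soma 1 or female soma 3, and per cell without female soma 2. Quantile normalization called Kdr in place of Emcn in soma by read depth. The per-cell sex difference fell to 1 without male PGC 3, female soma 2 or female soma 3. Apart from the filter's smaller set of genes, the cause of these changes was not tested. Replicate numbers did not pair the libraries (correlations of deviations from -0.36 to 0.07 by read depth, 0 of 18 over 0.1), and the replicate block gave 9, 10, 3, 4 and 2 members by read depth and 9, 7, 3, 4 and 3 per cell, adding Kdr in soma (adjusted p = 0.0485) and in PGCs (adjusted p = 0.0491). Members with under 20 reads in a PGC group's libraries, such as Emcn, Esam and Tie1, limit what depth can show there.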
